A study of Homo sapiens with 4 samples.

Results

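The 10 genes described here encode the cyclins that drive cells through G1 phase, the kinases these cyclins activate and 2 inhibitors of the kinases. They are the D-type cyclins CCND1, CCND2 and CCND3, the E-type cyclins CCNE1 and CCNE2, the kinases CDK2, CDK4 and CDK6, and the inhibitors CDKN1B (p27) and CDKN2C (p18). They were picked by symbol from the 60725 genes of the count table, all 10 were found there, and all 10 had enough reads to be tested.

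D-type cyclins are made in response to growth signals and bind CDK4 and CDK6. These kinases start the phosphorylation of the retinoblastoma protein, which frees E2F transcription factors. E2F factors raise many genes of DNA replication and also E-type cyclins, which bind CDK2 and carry the cell into S phase. CDKN2C is an INK4 protein, a family that binds CDK4 and CDK6 and keeps D-type cyclins away from them. CDKN1B is a CIP/KIP protein, which holds cyclin E with CDK2 in an inactive complex.

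RNA-seq was done on an RPE1 line that expresses the SunTag system. RPE1 cells descend from human retinal pigment epithelium and were immortalized by the catalytic subunit of telomerase (hTERT). Cells received 10 nM of Silencer Select Negative Control No. 2 siRNA (control) or of the Dharmacon ON-TARGETplus SMARTpool against TOP2B (TOP2B knockdown), with a second transfection 48 h later, and RNA was taken 72 h after that, on day 5. Each condition had 2 biological replicates of this line, and the SunTag system was present in both conditions. The study asked whether changes in transcription could account for altered contacts of the genome with the nuclear lamina. The control and the knockdown cells received different siRNAs, so that loss of TOP2B and other effects of either siRNA cannot be told apart in these libraries.

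Libraries held between 20310259 and 23887013 counted reads. TOP2B itself stood at 154.9 and 143.5 CPM (reads scaled to library size by the TMM method of edgeR) in control and at 15.3 and 13.3 CPM in knockdown. Of the pigment epithelial markers, RPE65, TYR and CRX had no reads in any library, and RLBP1 had 0 or 1. BEST1, PMEL and SERPINF1 were scarce, with 7 to 47 reads per library, while KRT8, KRT18, MITF and OTX2 were expressed. Of 18 markers of the other lines used in the study (K562, HCT116 and GM12878), 11 had no reads, and none had more than 7 reads in a library.

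CCNE2, CDKN2C and CDK2 rose after TOP2B knockdown, to 216%, 156% and 152% of their control levels. They encode an E-type cyclin, an inhibitor of CDK4 and CDK6, and the kinase that E-type cyclins bind. In the quasi-likelihood test of edgeR, with a threshold of 0.05 on the adjusted p, these 3 of the 10 members were called higher, as were 6.66% of the 15356 genes tested (10.8% of genes were called in either direction). By the same test 0 of the 10 members were called lower, beside 4.18% of all genes, with 2 members lower at an unadjusted p below 0.05 and 0 lower by DESeq2 or by limma voom. DESeq2 called 4 members higher, the additional one being CCND1, and limma voom called 3. Over all genes, DESeq2 called 917 higher and 645 lower of 13275. The paper, which does not name its test, reports these same counts of up- and downregulated genes. Limma voom called 986 higher and 597 lower of 15356. The share of all genes at an unadjusted p below 0.05 is not given here. The median log2 fold change was 0.45 over the 10 members and -0.0029 over all genes tested. In 9 members no knockdown value fell within the control values, which was also true of 54.3% of all genes tested. These are bulk samples, in which more cells in a phase of the cycle and more RNA per cell cannot be told apart. From PI staining of cells, the paper reports unaltered progression through the cell cycle after depletion of TOP2B. How that staining relates to the RNA levels was not tested here.

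**Figure D1:**
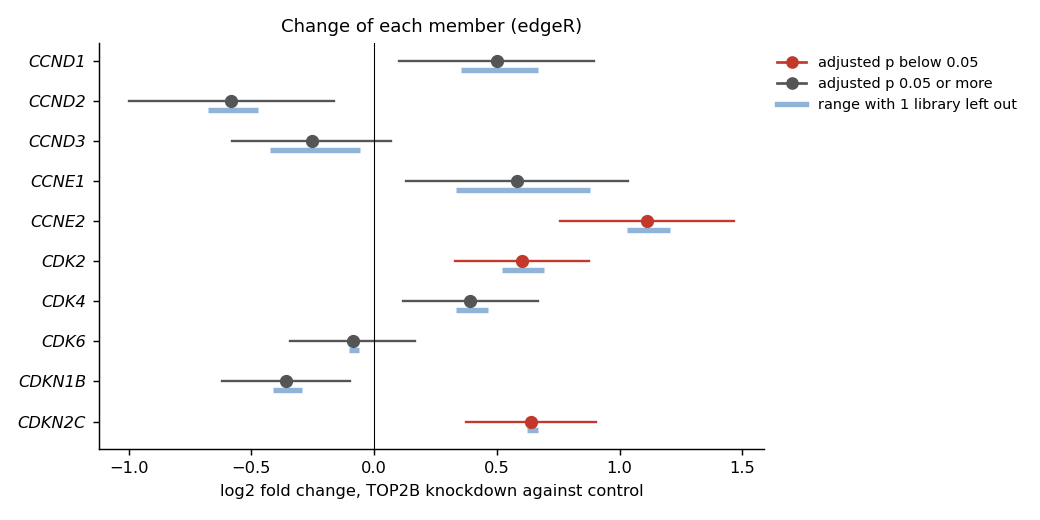
Log2 fold change of each member between TOP2B knockdown and control (x axis; 2 libraries per condition). Points are the edgeR estimates with 95% intervals, red where the adjusted p is below 0.05, and the blue bars give the range of the estimate when 1 of the 4 libraries is left out. CCNE2 lies farthest to the right at 1.11, CCND2 farthest to the left at -0.58, and CDK6 sits at -0.09.

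Read per kilobase of exon, the levels of the members spanned more than 2 orders of magnitude. In control cells CCND1 was at the top with 216.7 ± 32.4 CPM per kb (SD, n = 2), followed by CDK4 with 40.7 ± 1.89. CCND3 and CDK2 came next with 12.0 ± 2.09 and 10.9 ± 0.871 CPM per kb and overlapped each other between replicates. Below them stood CDKN2C, CDKN1B, CDK6 and CCNE1, between 9.13 and 3.99 CPM per kb. The lowest were CCNE2 with 1.65 ± 0.149 and CCND2 with 0.984 ± 0.102 CPM per kb. Apart from CCND3 and CDK2, no 2 neighbours in this order overlapped between the control replicates. In the knockdown cells CDK2 and CDKN2C stood above CCND3, at 16.6, 14.2 and 10.0 CPM per kb. With the length of the canonical transcript in place of all exons, CDKN1B ranked above CDKN2C (27.7 CPM per kb) and CDK2 (19.0) in control, so that the middle of the order depends on the gene models.

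**Figure D2:**
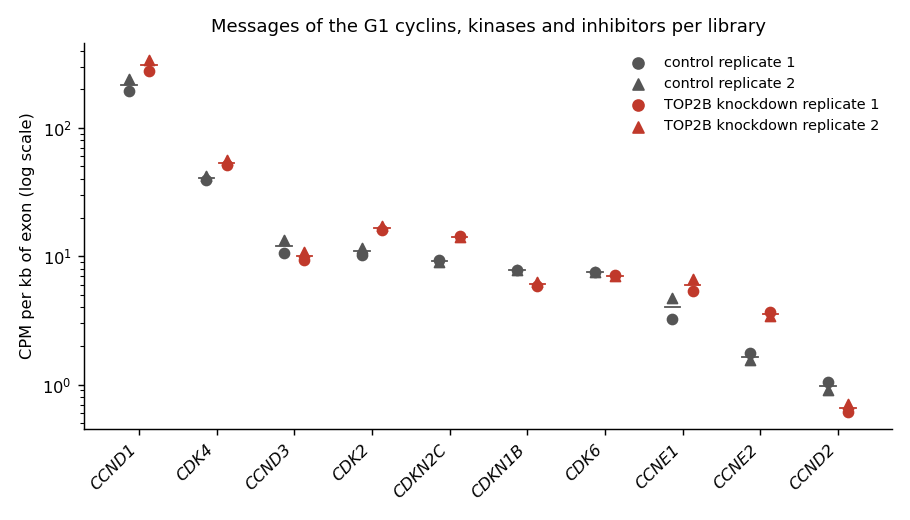
Level of each member in each library, as CPM per kilobase of exon on a log axis, ordered by the control mean. Grey symbols are control and red symbols TOP2B knockdown libraries, circles replicate 1 and triangles replicate 2, and short lines are the means. CCND1 is highest and CCND2 lowest in both conditions, and the red symbols of CCNE2, CDK2 and CDKN2C lie above the grey ones.

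CCND1 (ENSG00000110092, chromosome 11 from 69641156 to 69654474 of GRCh38, plus strand) encodes cyclin D1, a partner of CDK4 and CDK6. Its level was 922.9 and 1141 CPM in the control and 1318 and 1599 CPM in the knockdown replicates, more than that of 99.6% of the genes tested. Both knockdown libraries were above both control libraries, but replicate 2 exceeded replicate 1 in either condition. The log2 fold change of 0.50 (standard error 0.18, 95% interval 0.10 to 0.90, p adj = 0.106) was short of the threshold. With DESeq2 it was 0.48 (p adj = 0.0282), and over the alternative settings that kept all libraries the adjusted p ran from 3.18e-07, with the replicate number as a block, to 0.117.

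CCND3 (ENSG00000112576, chromosome 6 from 41934934 to 42050357, minus strand) encodes cyclin D3. It had 60.5 and 77.6 CPM in control and 53.9 and 61.8 CPM in knockdown, so that the groups overlapped. The log2 fold change was -0.25 (95% interval -0.58 to 0.07, p adj = 0.306). It was -0.06 without control replicate 2 and -0.43 without control replicate 1, and neither was called. Replicate 2 was above replicate 1 in both conditions, and with the replicate number as a block CCND3 was called lower (-0.25, p adj = 0.00293), although whether the numbers pair the samples was not settled.

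CCND2 (ENSG00000118971, chromosome 12 from 4269771 to 4305353, plus strand), which encodes cyclin D2, was scarce in this line. It received 202 and 166 reads in control and 104 and 113 reads in knockdown, or 8.43 and 7.28 against 4.91 and 5.60 CPM. The knockdown values lay below the control values. The log2 fold change of -0.58 (standard error 0.19, 95% interval -0.999 to -0.16) did not pass the threshold (p adj = 0.0779), but did so without a filter on low counts (p adj = 0.0451) and with the replicate number as a block (p adj = 0.0039).

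Cyclin D1 messages made up most of the D-type cyclin total in every library. Per kilobase of exon, the share of CCND1 was 94.4% and 94.3% in the control and 96.5% and 96.7% in the knockdown replicates. CCND3 held 5.12% and 5.30% of the total in control and 3.26% and 3.09% in knockdown, without overlap. The level of CCND3 itself did overlap between the conditions, and the total was mostly CCND1, which was higher in both knockdown libraries. The part of CCND2 was below 1% throughout, with 0.514% and 0.359% in control and 0.214% and 0.202% in knockdown. The summed level of the 3 genes in knockdown was 138% of that in control. With 2 libraries per condition no exact permutation test of such a share can give a two-sided p below 0.333, so the shares are given as values.

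**Figure D3:**
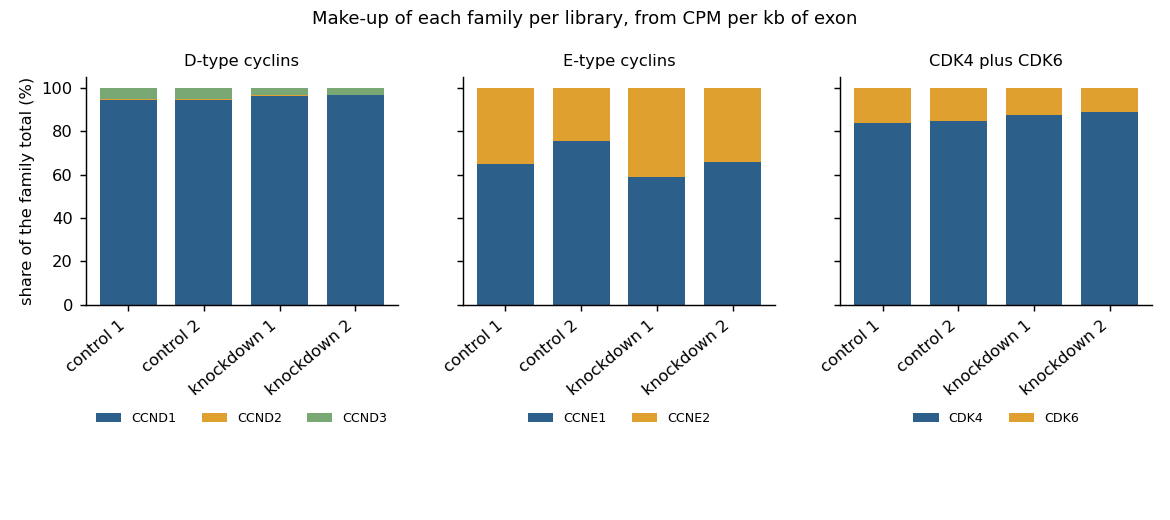
Share of each gene in the summed level of its family (y axis, percent; levels as CPM per kilobase of exon), with 1 bar per library, for the D-type cyclins, the E-type cyclins and CDK4 with CDK6. CCND1 takes 94.3% to 96.7% of its family, CCNE1 takes 59.0% to 75.3%, and CDK4 takes 83.9% to 88.9%.

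CCNE2 (ENSG00000175305, chromosome 8 from 94879770 to 94896678, minus strand) encodes cyclin E2 and had the largest change among the members. It stood at 7.72 and 6.80 CPM in the control and at 16.3 and 15.1 CPM in the knockdown replicates, from 155 to 345 reads per library. The 2 groups were far apart compared with the gap between replicates. CCNE2 rose by 1.11 on the log2 scale (standard error 0.16, 95% interval 0.76 to 1.47, p adj = 0.00286), more than 98.0% of the genes tested. It was called in each of the 8 alternative settings with all libraries and in each of the 4 fits without 1 library, with log2 fold changes between 1.03 and 1.21. Of its exon bases, 37.1% are shared with other annotated genes, among them INTS8 on the opposite strand, and in the canonical transcript the share is 57.1%. INTS8, a subunit of the Integrator complex, was at 129% of its control level (p adj = 0.0925), and reads from shared bases could not be told apart if the counting ignored strand.

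CCNE1 (ENSG00000105173, chromosome 19 from 29811991 to 29824312, plus strand) encodes cyclin E1 and shares no exon bases with another gene. Its values were 8.02 and 11.6 CPM in control and 13.1 and 16.3 CPM in knockdown. Every knockdown value was above every control value, with a gap between the groups that was smaller than that between the control replicates. The log2 fold change was 0.58 (standard error 0.20, 95% interval 0.13 to 1.03, p adj = 0.0987) and did not pass the threshold. It passed without control replicate 2 (0.88, p adj = 0.00596) and without TOP2B knockdown replicate 1 (0.73, p adj = 0.0252), and over all 4 such fits it ran from 0.33 to 0.88. With all libraries kept, it passed without a filter on low counts (p adj = 0.0186) and with the replicate block (p adj = 0.000381), but in none of the other 6 settings.

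Both E-type cyclins together reached 5.01 and 6.27 CPM per kb in control and 9.03 and 10.1 in knockdown, 169% of the control mean. CCNE2 messages were 0.539 and 0.327 times those of CCNE1 in control and 0.695 and 0.521 times in knockdown. These ratios overlapped between the conditions, so that a change in the balance of the 2 genes was not resolved. The difference between their fold changes was not tested. Exon bases shared with other genes were 37.1% in CCNE2 and 0% in CCNE1, and lengths were not adjusted for this.

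CDK2 (ENSG00000123374, chromosome 12 from 55966781 to 55972789, plus strand) encodes the kinase that binds E-type and A-type cyclins. It had 40.1 and 44.9 CPM in the control and 62.0 and 67.1 CPM in the knockdown replicates. Values within a condition were close and the conditions did not overlap. CDK2 rose by 0.60 on the log2 scale (standard error 0.12, 95% interval 0.33 to 0.88, p adj = 0.0137). When control replicate 1 was left out, the estimate was 0.52 and the call was lost (p adj = 0.0631), while the other 3 such fits and all 8 alternative settings kept it. Other genes, among them PMEL, share 16.8% of its exon bases, and PMEL had between 7 and 31 reads per library.

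CDK4 (ENSG00000135446, chromosome 12 from 57747727 to 57756013, minus strand) encodes a partner of D-type cyclins. Its values were 121.9 and 130.2 CPM in control and 157.8 and 173.2 CPM in knockdown. No overlap was seen between the conditions, yet the log2 fold change of 0.39 (standard error 0.12, 95% interval 0.12 to 0.67) stayed above the threshold (p adj = 0.0718). TSPAN31, which lies on the other strand, shares 44.2% of the exon bases of CDK4 and 57.8% of those of its canonical transcript. It had between 243 and 302 reads per library against 2920 to 3492 for CDK4, and its own change was not called (p adj = 0.257).

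CDK6 (ENSG00000105810, chromosome 7 from 92604921 to 92836573, minus strand), the other partner of D-type cyclins, had the estimate nearest to 0 among the members. It stood at 92.4 and 91.6 CPM in control and 87.5 and 85.5 CPM in knockdown, slightly lower in both knockdown libraries. Its log2 fold change was -0.09 (standard error 0.11, p adj = 0.675), with a 95% interval from -0.34 to 0.16. CDK6 is also the only member with the word GCAACC in the 3′ UTR of its canonical transcript, a word that 23.4% of 12517 tested genes with an annotated 3′ UTR hold and that was looked for with earlier results of these data known. The word occurs 2 times there, on the minus strand at chr7:92610912-92610941 and chr7:92605700-92605729, and the sequences are shown with the word in capitals.
CDK6 first site: tcaagggaagagGCAACCacatgaagcaat
CDK6 second site: tgtctcactctaGCAACCatccctccatta
At 10219 bases, the 3′ UTR of CDK6 is the longest among the members, ahead of 5344 bases in CCND2, and the share over all genes was not matched for length. None of the members called higher holds the word in this 3′ UTR. The match is a description of the letters only, and a relation between the word and the fold change was not tested.

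Among both D-type cyclin kinases, CDK4 messages were the more abundant per kilobase of exon. CDK4 stood at 5.22 and 5.62 times the level of CDK6 in the control replicates and at 7.13 and 8.01 times in the knockdown replicates. The lack of overlap follows from CDK4 being higher and CDK6 lower in both knockdown libraries. Their sum in knockdown was 125.5% of that in control. Exon bases shared with other genes were 44.2% in CDK4 and 0.703% in CDK6, and lengths were not adjusted for this.

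CDKN2C (ENSG00000123080, chromosome 1 from 50960745 to 50974634, plus strand) encodes p18, an inhibitor of CDK4 and CDK6. It stood at 28.0 and 27.1 CPM in the control and 43.5 and 42.4 CPM in the knockdown replicates. The replicates were nearly equal in either condition. CDKN2C rose by 0.64 on the log2 scale (standard error 0.12, 95% interval 0.38 to 0.90, p adj = 0.00908), and by 0.62 to 0.67 in the fits without 1 library, all of them called. Another annotated gene overlaps 20.4% of its exon bases but 0% of those of the canonical transcript.

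The promoter of CDKN2C, as a member that was called, and that of CCNE1, as the close relative of CCNE2, are shown for their base composition. No window was available for CCNE2 or CDK2, the other members called. Each window was taken from RefSeq (GRCh38.p14) and runs on the plus strand from 250 bases before to 50 bases after the start of the canonical transcript, at chr1:50969995-50970294 for CDKN2C and chr19:29811741-29812040 for CCNE1. CG dinucleotides are in capitals.
CDKN2C: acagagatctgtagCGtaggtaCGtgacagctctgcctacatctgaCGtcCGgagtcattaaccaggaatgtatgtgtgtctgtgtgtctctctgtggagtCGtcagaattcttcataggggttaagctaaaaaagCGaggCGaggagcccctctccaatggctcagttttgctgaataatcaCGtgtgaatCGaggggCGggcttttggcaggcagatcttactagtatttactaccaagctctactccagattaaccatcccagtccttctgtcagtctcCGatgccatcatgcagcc
CCNE1: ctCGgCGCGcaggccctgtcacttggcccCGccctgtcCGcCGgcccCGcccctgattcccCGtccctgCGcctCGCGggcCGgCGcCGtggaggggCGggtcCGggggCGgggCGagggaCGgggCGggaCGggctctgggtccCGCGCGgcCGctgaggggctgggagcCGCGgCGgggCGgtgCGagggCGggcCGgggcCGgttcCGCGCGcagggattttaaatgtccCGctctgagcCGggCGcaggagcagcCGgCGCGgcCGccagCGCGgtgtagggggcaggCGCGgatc
The CDKN2C window holds 11 CG and is 49.3% G and C, while the CCNE1 window holds 47 CG, more than 97.6% of 35116 such windows, whose median is 14.0. The counts do not separate the 3 annotated starts of CDKN2C. No relation between base composition and fold change was tested.

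CDKN1B (ENSG00000111276, chromosome 12 from 12685498 to 12722369, plus strand) encodes p27, an inhibitor of CDK2 complexes. Its values were 71.9 and 72.6 CPM in control and 54.0 and 58.7 CPM in knockdown, lower in both knockdown libraries. The log2 fold change was -0.36 (standard error 0.12, 95% interval -0.62 to -0.10), which did not pass the threshold (p adj = 0.0803). The 2 inhibitors therefore had estimates of opposite sign, but only that of CDKN2C was called.

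Set against its inhibitor p27 within each library, CDK2 stood at 1.33 and 1.47 times CDKN1B in control and at 2.73 and 2.72 times in knockdown. CDK6 was at 0.814 and 0.833 times CDKN2C in control and at 0.497 and 0.498 times in knockdown. Both ratios were separate between the conditions by more than the gap between replicates. These pairs were chosen after their values were seen. CDK2 and CDKN2C were higher, and CDKN1B and CDK6 lower, in both knockdown libraries, so that separation was fixed in advance. With canonical transcript lengths CDK2 (19.0 CPM per kb) lay below CDKN1B in control and above it in knockdown (28.8 against 23.4), so that the ratio itself depends on the gene models. These are ratios of messages and say nothing of the proteins, which for p27 and the cyclins are strongly set by degradation.

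**Figure D4:**
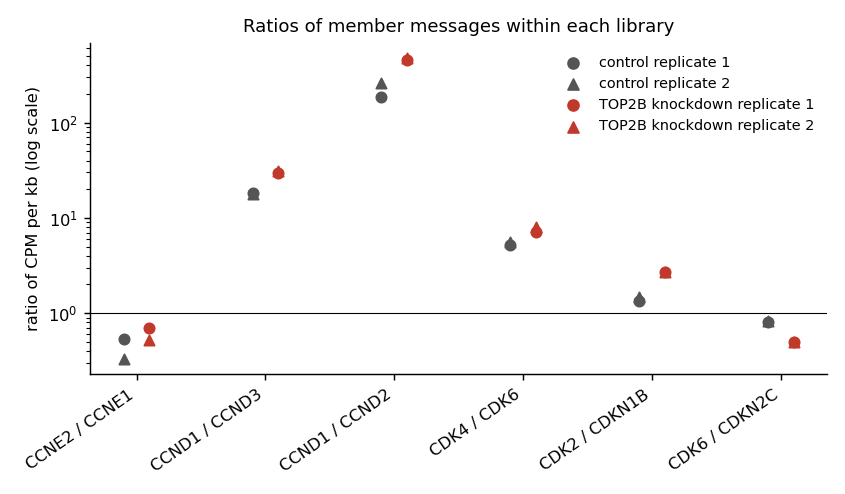
Ratios of member levels (CPM per kilobase of exon, log axis) within each library, for 6 pairs of genes. Grey symbols are control and red symbols TOP2B knockdown libraries, circles replicate 1 and triangles replicate 2, and the line marks a ratio of 1. The ratio of CCND1 to CCND3 goes from 17.8 and 18.4 to 29.6 and 31.3, while the ratio of CCNE2 to CCNE1 overlaps between the conditions.

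Around the members, 62 other genes of the pathway in 7 lists were examined, all of them tested, of which 24 were called higher and 1 lower, beside 6.66% and 4.18% of all genes tested. The lists were drawn up from general knowledge, but with earlier results of these data known. The list of E2F target genes gave 15 of the 24 higher calls, so that the pooled count is no independent support. None of the 5 other CDK inhibitors was called by edgeR in either direction, with 2 lower and 0 higher at an unadjusted p below 0.05, 1 lower by DESeq2 and 0 by limma voom. CDKN1A (p21), a p53 target that acts on CDK2, had 564.4 CPM in control and 364.2 CPM in knockdown on average (log2 fold change -0.63, standard error 0.21, p adj = 0.0863). CDKN2B (p15), an INK4 protein, had 16.8 and 12.0 CPM (-0.49, p adj = 0.059). CDKN2A, whose locus encodes p16 and p14ARF from shared exons, had 80.2 and 96.4 CPM (0.26, p adj = 0.197). CDKN2D (p19) with -0.04 and the scarce CDKN1C (p57) with 0.23, on 10 to 18 reads per library, showed no separation between the conditions.

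Pocket proteins and E2F factors included 6 called higher and 0 called lower of 13, with a median log2 fold change of 0.33. DESeq2 and limma voom each called 5 higher, and in edgeR E2F3 was close to the threshold (p adj = 0.0496). The called genes were the E2F factors E2F1 (0.74), E2F2 (1.89), E2F3 (0.43) and E2F8 (1.16) and their dimerization partners TFDP1 (0.54) and TFDP2 (0.91). E2F1 to E2F3 activate target genes, whereas E2F8 represses them. E2F2 went from 60 and 68 reads in control to 229 and 192 reads in knockdown. RB1, RBL1 and RBL2, the pocket proteins that CDK4, CDK6 and CDK2 phosphorylate, had log2 fold changes of 0.21, 0.32 and 0.10 and were not called. With 1 lower gene at an unadjusted p below 0.05 (E2F5, -0.50) and 0 by DESeq2 or limma voom, no gene of the list was called lower.

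Of 16 genes listed as E2F targets tied to DNA replication, 15 were called higher, by edgeR, DESeq2 and limma voom alike in number. The median log2 fold change was 0.69. CDC45 (1.11), MCM6 (0.98), UHRF1 (0.82), MCM10 (0.79), MCM4 (0.77), MCM5 (0.72), MCM2 (0.71), MCM7 (0.69), PCNA (0.68) and TYMS (0.67) were among them, as were MCM3 (0.63), GINS2 (0.63), SLBP (0.59), CDT1 (0.58) and RRM2 (0.52). CDC6, a loader of the MCM helicase, had 0.32 (p adj = 0.129). The summed level of the list was 1365 and 1459 CPM in control and 2200 and 2309 CPM in knockdown. Among the members CCNE2, CDK2 and CDKN2C were also called higher, while CCND2, CCND3, CDK6 and CDKN1B had negative estimates. A relation between this list and the members was not tested. Most genes of this list had already been seen to rise in these data, so their count is no independent support.

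Later cyclins and their kinase gave 1 call among 4 genes. Among CCNA2, CCNB1, CCNB2 and CDK1, the cyclins and the kinase of S, G2 and M phase, CDK1 was called higher (0.41, p adj = 0.0497) and the others had log2 fold changes of 0.32, 0.13 and 0.20. DESeq2 and limma voom called 0 of the 4, and 2 were higher at an unadjusted p below 0.05. That the change of CCNE2 exceeded those of these cyclins was not tested.

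Regulators of CDK activity gave 2 calls among 7 genes. CDC25A, the phosphatase that activates CDK2, rose by 0.56 (p adj = 0.0241), and PKMYT1, a kinase that holds CDK1 inactive, rose by 0.77 (p adj = 0.0109). CDK7, CCNH and MNAT1, which form the kinase that activates CDKs, had log2 fold changes of -0.01, -0.19 and -0.16 and were not called. The activating kinase and the inhibitory kinase WEE1 (0.30, p adj = 0.186) thus gave no call.

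For the turnover of G1 cyclins and p27, 1 of 9 genes was called, and it was lower. CKS1B, the cofactor that lets the SKP2 ubiquitin ligase recognize p27, fell by 0.63 (standard error 0.13, p adj = 0.0167), from 39.5 to 25.6 CPM on average. SKP2 itself had 0.12 and FBXW7, which marks cyclin E for degradation, -0.10, neither called. Among 8 transcription factors of D-type cyclin and inhibitor genes, edgeR, DESeq2 and limma voom each called 0, with 1 gene higher at an unadjusted p below 0.05 (ZBTB17, 0.47, p adj = 0.0626). MYC had 98.4 CPM in control and 110.3 CPM in knockdown (0.16, p adj = 0.531).

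**Figure D5:**
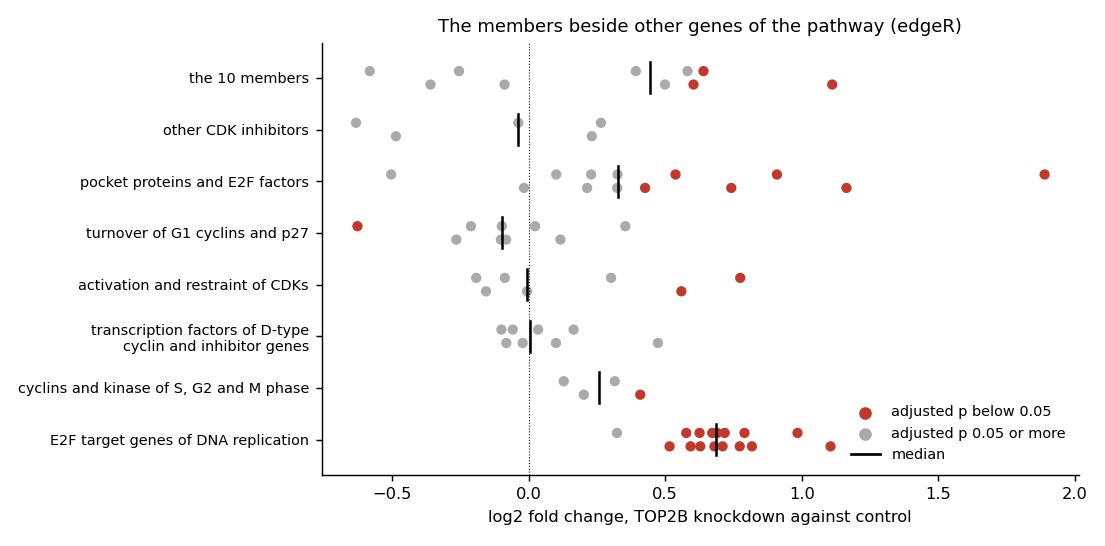
Log2 fold change of each tested gene (x axis, TOP2B knockdown against control) for the 10 members and for 7 lists of other genes of the pathway (rows). Each point is 1 gene, red where edgeR's adjusted p is below 0.05 and grey otherwise, and black lines are list medians. The 16 E2F target genes lie between 0.32 and 1.11, while the members spread from -0.58 to 1.11.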

How the data were processed

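RNA-seq libraries from RPE1 SunTag cells, 2 of control and 2 of TOP2B knockdown, were compared. Per the methods and the submitters' processing notes, reads passed through FastQC 0.11.6 and STAR 2.5.4a (GRCh38), and genes were counted during alignment on Gencode v24. The authors deposited raw counts per gene. The 4 columns occur a second time with identical values, and these 4 copies were not used. The columns are named as stranded and paired-end, whereas the methods give single-end 65-bp reads. The methods also name the TruSeq RNA LT kit and run STAR with outWigStrand set to Unstranded. Neither the strand setting of the gene counts nor the handling of reads from exon bases shared between genes is given in the sources used here.

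The test covered 15356 of 60725 genes, those reaching 10 counts in 2 or more libraries, and used edgeR 4.0.16 in R 4.3.3 (glmQLFit, glmQLFTest) with TMM scaling and condition as its sole term. The common dispersion was 0.0117. P-values were adjusted by Benjamini-Hochberg over all genes tested, and p adj in the text is from this test unless another tool is named. Standard errors and 95% intervals were derived from the quasi-likelihood F statistic. CPM values were scaled by TMM, and 1 CPM rests on 20.3 to 23.9 reads. Intervals cover these libraries only.

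Levels per kilobase used the union of exons in GENCODE v44 (GRCh38), which also gave positions, overlaps and 3′ UTRs. Lengths were not reduced for exon bases shared between genes. Of the tested genes, 98.9% had a symbol. The genes named were all members, TOP2B, the other CDK inhibitors and called genes of 7 pathway lists. Other list genes in the text, such as uncalled pocket proteins, and the 6 ratios between members were added after their values were seen. The members and lists were chosen with earlier results of these data known. Scripts were tested on simulated counts. Alternatives were the size factors of DESeq2, no normalization factors, DESeq2 1.42.0, limma 3.58.1 (voom), other filters, the replicate number as a block, protein-coding genes alone, fits without each library, and other gene lengths or TPM for the levels.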

Additional observations from a re-analysis of the deposited data

How the results depend on the processing

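All 10 members kept the sign of their log2 fold change in each alternative, and CCNE2 and CDKN2C were called in every one. Without a filter on low counts 5 members were called higher and 1 lower, beside 1358 and 985 of 29440 genes. In that fit 3 other genes of the pathway were called lower, against 1 in the main test and 2 with DESeq2. Apart from the replicate block, the other alternatives with all libraries gave 3 or 4 members higher and 0 lower. Leaving out 1 library gave a median log2 fold change of the members of 0.34 to 0.54. In those fits the lone library of a condition is assumed to vary like the others. The same-numbered replicates share only a number by their labels, and their deviations from the condition means had a correlation of 0.479 over genes. With the replicate number as a block, 6 members were called higher (CCND1, CCNE1, CCNE2, CDK2, CDK4 and CDKN2C) and 3 lower (CCND2, CCND3 and CDKN1B), 36 other pathway genes were called higher and 7 lower, and 6786 genes in place of 1665 were called over all genes. With 2 pairs it was not settled whether the numbers pair the samples. With canonical transcript lengths the shares of CCND1, CCNE1 and CDK4 in their families were 87.4%, 64.4% and 89.5% in control and 92.1%, 56.0% and 92.3% in knockdown. With 2 libraries per condition, the standard errors of the members ran from 0.11 for CDK6 to 0.20 for CCNE1, on the log2 scale.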
